A study of Mus musculus with 6 samples.

Results

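The genes described are 46 genes of the heart's extracellular matrix other than collagens: glycoproteins, proteoglycans, elastic fibre proteins, crosslinking enzymes, and the proteases and inhibitors that remodel the matrix. They were chosen by name, with earlier results of these data known, and all 46 were found among the 25006 genes listed in each file. All 46 also passed the filter on low counts, among 14815 genes tested. Ventricles of mouse embryos on an NMRI background at embryonic day 17.5 were profiled by bulk RNA sequencing in 3 control libraries, whose genotype label is WT, and 3 libraries labelled null, whose genotype label is VecadcreERT2; Prox1f/f. In the null genotype a tamoxifen-inducible Cre recombinase, driven by the VE-cadherin promoter of endothelial cells, acts on floxed alleles of Prox1, the transcription factor of lymphatic endothelium. The same treatment is recorded for every sample: the pregnant females received tamoxifen, 5 mg for each 40 g they weighed, at E13.5 and E14.5. The labels do not say whether the control embryos carried floxed alleles or whether each library came from a separate embryo, so the p-values measure only the spread between these samples. The WT label names no Cre, so effects of the Cre itself and of the Prox1 alleles cannot be told apart here. Null-labelled hearts below stand for the 3 libraries labelled null, however many embryos each of them holds.

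The libraries held 35195544 to 44330594 counts, and a gene with 3 counts stood at 0.0677 to 0.0852 CPM. CPM here are counts scaled for depth with TMM factors, which adjust for a few genes taking many reads. Prox1 did not go down in the libraries labelled null (147 ± 3.16 CPM against 164 ± 3.91 CPM, SD, n = 3 in each group; log2 fold change 0.15 ± 0.03 SE, adjusted p = 0.0331 in edgeR, 0.039 to 0.13 with a library left out and 0.557 without null 1 and null 3); cardiomyocytes also express Prox1 and the count covers all exons, so it is a weak check of the labels. Esr1, part of which inducible Cre carries, had 9 to 19 counts in controls and 244 to 298 in null-labelled libraries. By 4 Y-linked genes, 2 libraries of each group were male and 1 was female: control 3 and null 2. A fit without control 3 or without null 2 therefore has no female library in that group. However, null 1 and null 3, which were male, also carried Xist at 44.6 and 139 CPM. Xist was at 0.632 and 0.809 CPM in the male controls and 1400 to 1410 CPM in the female libraries. Whether null 1 and null 3 hold RNA of more than a single embryo was not tested, and what their values stand for is uncertain to that extent. The calls named among matrix genes are also given without null 1 and null 3. The calls of cell type markers were not tried without them. Cardiomyocyte markers were present throughout (Myh7, a myosin heavy chain, at 19030 to 20750 CPM). In bulk tissue, fewer cells of a type and less RNA per cell cannot be told apart.

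The matrix between heart cells holds fibrillar and elastic scaffolds, proteoglycans that bind water and growth factors, and basement membranes around muscle cells and vessels. Fibroblasts make most of it in the ventricular wall, while smooth muscle cells of the great arteries and coronary vessels make most elastin. Before birth this matrix is laid down as the compact myocardium and the coronary vessels grow, and lysyl oxidases, metalloproteinases and their tissue inhibitors set how stiff and how stable it becomes.

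Of the 46 matrix genes, 1 rose in null-labelled ventricles, Tnxb, and 0 fell; 45 did not pass the test. By edgeR's quasi-likelihood test with adjustment over all genes, 2.43% of the genes tested rose and 2.98% fell (5.41% in all), against 2.17% of the matrix genes. The median log2 fold change of the matrix genes was 0.05, with 26 above 0 and 20 below; over all genes tested it was −0.004. At an unadjusted p under 0.05 there were 7 matrix genes higher and 0 lower, where 9.55% of all genes tested were higher and 10.9% lower. The groups did not overlap for 5 matrix genes, each higher in null-labelled libraries, where 12.7% of all genes tested did not overlap in that direction. DESeq2 called 4 matrix genes (Tnxb, Ogn, Mmp2 and Timp3), with 7.54% of all genes called, and limma-voom called 1 (Tnxb), with 4.5% of all genes called.

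This count depended on single libraries and on the tool. With no filter on low counts it was 2 higher (Tnxb and Ogn), where 2.12% of all genes tested were higher; the higher share of all genes was 3.74% in DESeq2 and 2.08% in limma-voom. Without control 1, control 2 or null 1 it stayed at 1, with 1.84%, 1.06% and 1.05% of all genes tested higher. Without control 3 it was 5 higher (Tnxb, Fn1, Fbln1, Mmp2 and Timp3), with 2.98% of all genes tested higher; without null 2 it was 2 higher (Tnxb and Ogn), with 0.879%; without null 3 it was 0, with 0.852%; and without null 1 and null 3 together it was 0, with 0.138%. The number lower was 0 in each of these fits.

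**Figure D1:**
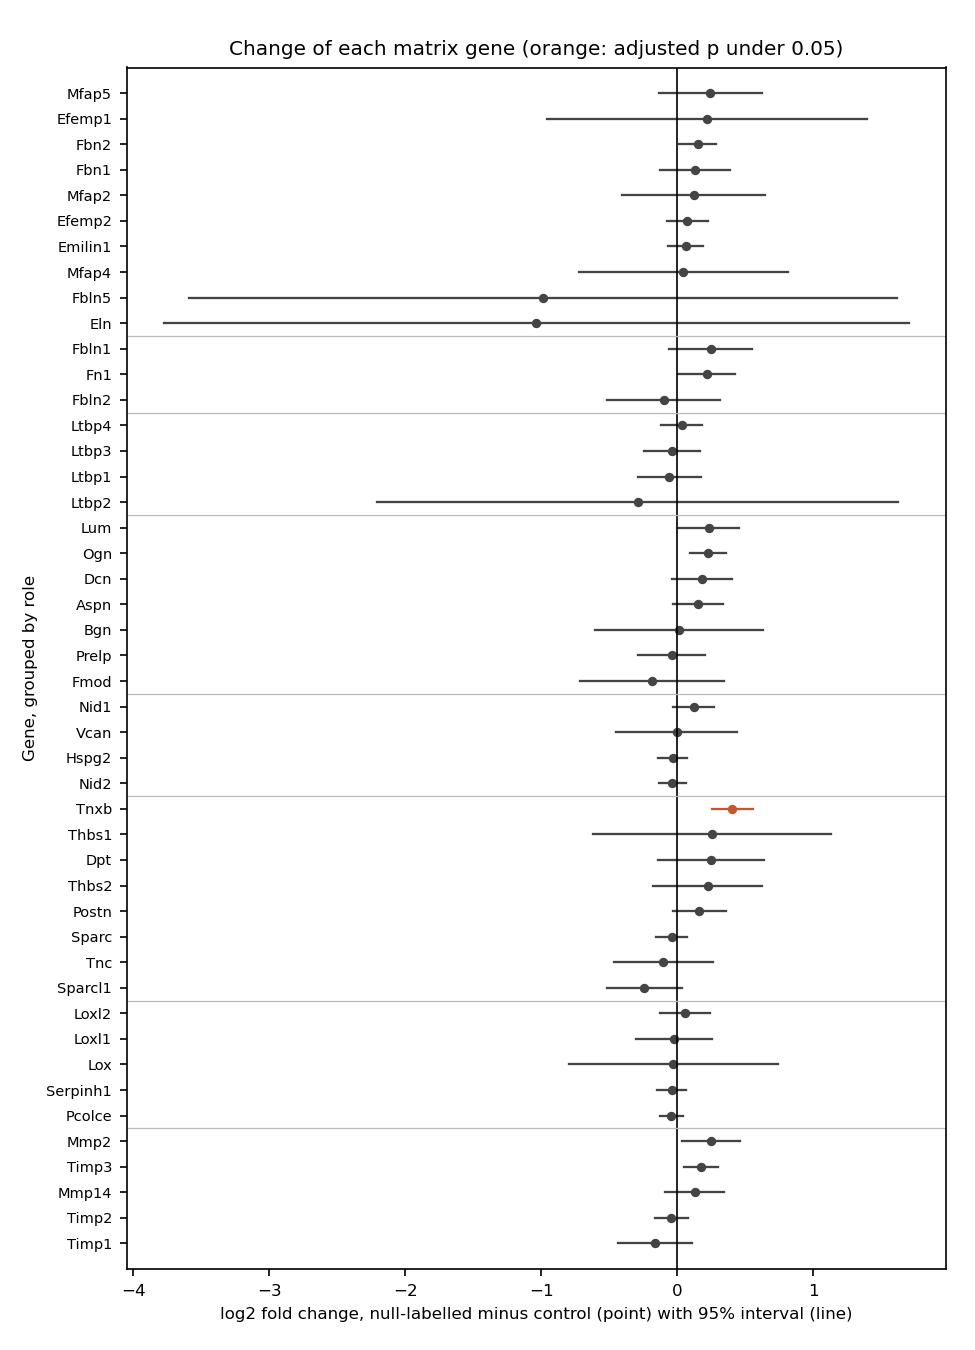
Log2 fold change of each matrix gene (point, null-labelled minus control, horizontal axis) with its 95% interval from the edgeR fit (line), grouped by role. Only Tnxb, in orange, has an adjusted p under 0.05; the intervals of Eln, Fbln5 and Ltbp2 run from below −2 to above 1.

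Tnxb encodes tenascin-X, a large glycoprotein that links collagen fibrils. Its level was 99.8, 88.0 and 105 CPM in controls 1 to 3 and 136, 125 and 126 CPM in the null-labelled libraries 1 to 3. Every null-labelled library lay above every control. The log2 fold change was 0.40 ± 0.07 (SE), or 1.32-fold, with a 95% interval of 0.25 to 0.55 and adjusted p = 0.0153. Without null 3 the fold change was 0.42 with adjusted p = 0.0531, and without null 1 and null 3 it was 0.36 with adjusted p = 0.292. The gene lies on chromosome 17 from 34670535 to 34719815 (GRCm38), and 3 bases of its exons (0.0246%) overlap the pseudogene Cyp21a2-ps on the other strand. Its RefSeq promoter, 250 bases before to 50 after the start (GRCm38.p6, chr17:34670285-34670584, plus strand), is shown because Tnxb is the matrix gene that passed; capitals mark a match to TGANTCA, the AP-1 element, 55 bases before the start.
Tnxb: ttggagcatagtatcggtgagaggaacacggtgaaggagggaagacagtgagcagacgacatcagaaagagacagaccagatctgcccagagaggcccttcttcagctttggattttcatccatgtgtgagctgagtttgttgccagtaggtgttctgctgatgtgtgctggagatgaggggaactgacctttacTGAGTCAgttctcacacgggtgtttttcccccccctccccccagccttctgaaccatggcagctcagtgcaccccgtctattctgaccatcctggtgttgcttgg
This motif, searched on both strands, occurred in 7.81% of all 32851 RefSeq promoters of that length and in 9.38% of the 32 matrix gene promoters that matched by symbol. A match describes the letters only.

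Among small leucine-rich proteoglycans, which coat collagen fibrils and bind growth factors, 0 of 7 passed in edgeR, although 2 reached an unadjusted p under 0.05; DESeq2 passed 1 of them and limma-voom 0. Ogn, which encodes osteoglycin (mimecan), had 65.1, 63.7 and 66.0 CPM in the controls and 81.6, 69.0 and 77.0 CPM in the null-labelled hearts. The groups did not overlap, and the controls lay within a 1.04-fold range of each other while the null-labelled libraries spanned 1.18-fold. The log2 fold change was 0.23 ± 0.06, with adjusted p = 0.058 in edgeR and 0.0156 in DESeq2. In edgeR the adjusted p was 0.0281 without null 2 and 0.0315 with no filter on low counts, but 0.0806 to 0.172 with any other single library left out. Without null 1 and null 3 the log2 fold change was 0.09 with adjusted p = 0.718.

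Lum, which encodes lumican, also had no overlap: 67.4, 85.4 and 84.7 CPM in the controls and 98.5, 89.9 and 89.9 CPM in the null-labelled hearts. Control 1 lay well below the other controls, and the difference did not pass (log2 fold change 0.23 ± 0.10, adjusted p = 0.236; 0.13 without control 1). Dcn, which encodes decorin, a regulator of fibril growth, had 237, 255 and 280 CPM in the controls and 329, 281 and 264 CPM in the null-labelled hearts. Its groups overlapped, because null 3 lay below control 3 (adjusted p = 0.337). Aspn, which encodes asporin, was at 66.6 to 68.4 CPM in the controls and at 85.5, 68.0 and 71.0 CPM in the null-labelled hearts, so that its difference came mostly from null 1. Bgn (biglycan), Fmod (fibromodulin) and Prelp, which anchors basement membranes to tissue, had log2 fold changes of 0.02, −0.19 and −0.04.

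Ogn lies on chromosome 13 from 49608046 to 49624501. The RefSeq promoter of Ogn (GRCm38.p6, chr13:49607765-49608064, plus strand) is shown beside that of Tnxb because its groups also did not overlap. Capitals mark, in order, overlapping matches to TATAAA, the TATA box letters, on either strand at 229 and 227 bases before the start, and a match to CATTCC, the TEAD element, on the minus strand at 86 bases before it.
Ogn: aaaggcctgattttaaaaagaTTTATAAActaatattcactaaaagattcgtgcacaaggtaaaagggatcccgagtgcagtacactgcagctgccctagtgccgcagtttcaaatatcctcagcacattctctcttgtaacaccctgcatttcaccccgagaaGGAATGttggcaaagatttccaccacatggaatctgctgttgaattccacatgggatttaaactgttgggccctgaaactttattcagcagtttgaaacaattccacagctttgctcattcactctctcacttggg
TATAAA occurred in 13.6% of all promoters and in 18.8% of the matrix gene promoters, and CATTCC in 14.7% and 12.5%. TGANTCA was not in the Ogn window.

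Of the 5 proteases and inhibitors, 0 passed in edgeR or limma-voom. Mmp2 and Timp3 were the 2 with an unadjusted p under 0.05, and DESeq2 passed both. Mmp2, the gelatinase that cleaves denatured collagen and basement membrane, had 146, 152 and 183 CPM in the controls and 202, 185 and 184 CPM in the null-labelled hearts. The groups did not overlap, but control 3 and null 3 were separated by less than 1 CPM. The log2 fold change was 0.25 ± 0.09 (adjusted p = 0.181 in edgeR and 0.0252 in DESeq2), and without control 3 it was 0.35 with adjusted p = 0.00617. With any other library left out it was 0.18 to 0.27 (adjusted p 0.272 to 0.379), and without null 1 and null 3 it was 0.21 (adjusted p = 0.704). Timp3, an inhibitor of metalloproteinases that stays bound to the matrix, had 219, 200 and 233 CPM in the controls and 250, 236 and 249 CPM in the null-labelled hearts. Here too the groups did not overlap (log2 fold change 0.17 ± 0.06, adjusted p = 0.111 in edgeR and 0.0451 in DESeq2). The adjusted p was 0.0317 without control 3 and 0.167 to 0.275 with any other library left out; the log2 fold change was 0.12 without control 2 (adjusted p = 0.254) and 0.12 without null 1 and null 3 (adjusted p = 0.732). Timp3 lies inside Syn3, and 21.3% of its exon bases overlap exons of that gene on the other strand; the strand setting of the counting is not given in the sources used here, so its reads cannot be told apart from those of Syn3.

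The other members of this group moved less. Mmp14, the membrane-bound protease that activates Mmp2, differed by 0.13 on the log2 scale (adjusted p = 0.49), with 117 CPM in control 1 and 136 to 157 CPM in the other libraries. Timp2, which takes part in that activation, had −0.04, with 147 to 167 CPM over all libraries. Timp1, an inducible inhibitor, had 6.55, 8.72 and 8.04 CPM in the controls and 7.44, 6.30 and 7.02 CPM in the null-labelled hearts (log2 fold change −0.16 ± 0.12, adjusted p = 0.509; −0.27 without control 1 and −0.07 without control 2).

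**Figure D2:**
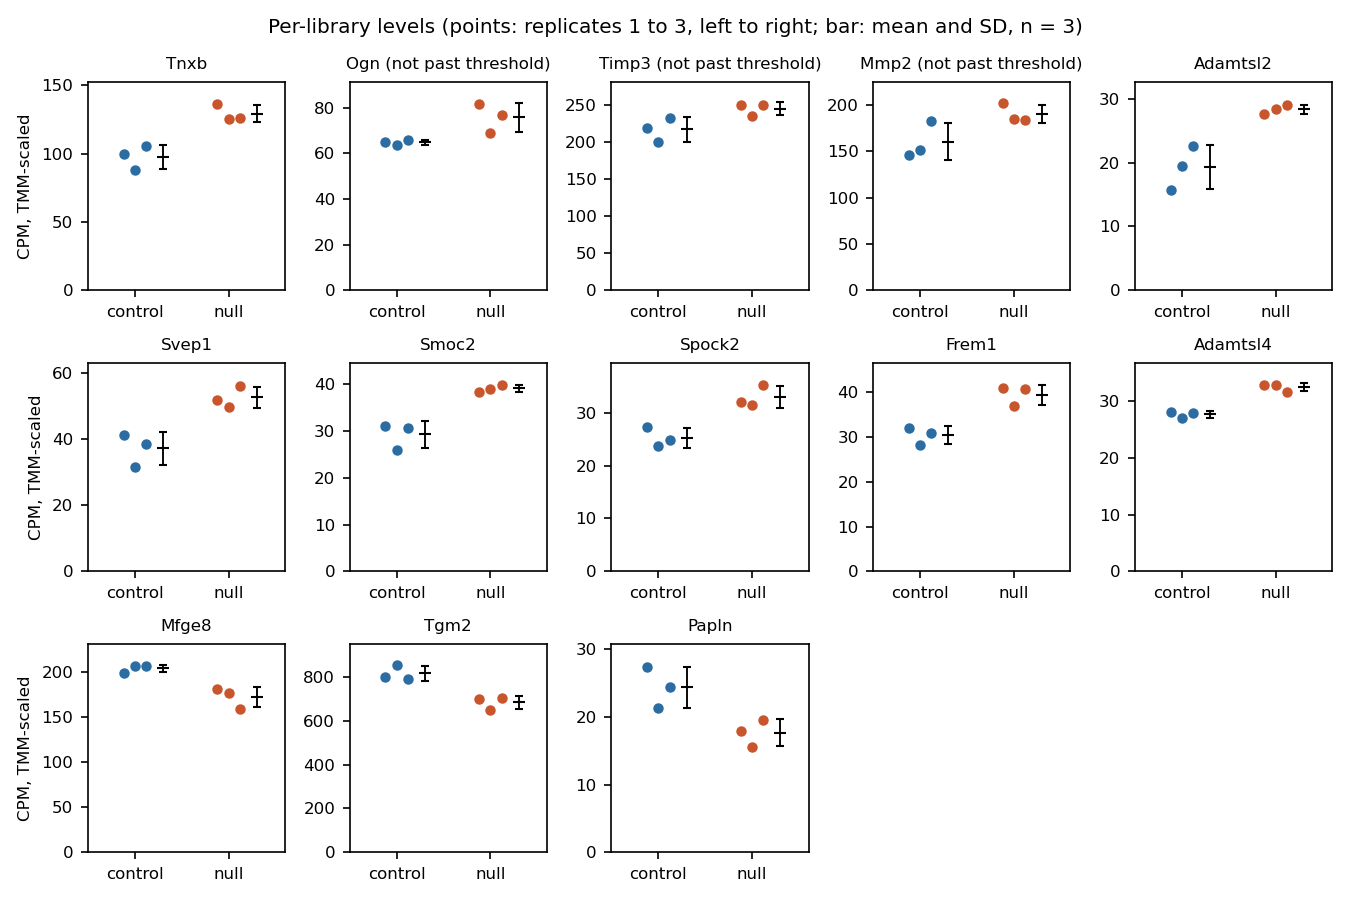
Levels in TMM-scaled CPM (vertical axes, from 0) in each library for Tnxb, for Ogn, Timp3 and Mmp2, and for the 9 further matrix genes that passed the test, with mean and SD of 3 libraries as bars. In each panel the control points (blue) and null-labelled points (orange) do not overlap; for Mmp2 the gap between control 3 and null 3 is the narrowest.

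Fn1 encodes fibronectin, the glycoprotein on which cells assemble other matrix. It had 1211, 1179 and 1497 CPM in the controls and 1568, 1460 and 1492 CPM in the null-labelled hearts. Control 3 lay inside the null-labelled range, and the log2 fold change of 0.22 ± 0.09 did not pass (adjusted p = 0.231); without control 3 it was 0.33 with adjusted p = 0.00417, and with any other library left out 0.15 to 0.24 (adjusted p 0.342 to 0.445). Fbln1, which encodes fibulin-1, a partner of fibronectin and versican, had the same arrangement: 68.0, 60.8 and 84.6 CPM in controls against 90.9, 82.3 and 79.7 CPM. Fbln2, which encodes a fibulin of valves and vessels, went from 176 to 252 CPM within controls alone, and its log2 fold change was −0.10 with all libraries (adjusted p = 0.795) and 0.03 without control 3.

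Matricellular genes, whose products signal to cells more than they bear load, included the most abundant matrix genes. Per kilobase of exon, Sparc, a collagen-binding glycoprotein, had the highest level of the 46 (519 CPM per kilobase, mean of 6 libraries). It had 2024, 1887 and 2073 CPM in the controls and 2044, 1890 and 1881 CPM in the null-labelled hearts, with a 95% interval of −0.15 to 0.07 for the log2 fold change. Its relative Sparcl1, which blood vessels and muscle express, had 651, 497 and 542 CPM in the controls and 527, 469 and 434 CPM in the null-labelled hearts. Control 2 lay below null 1, and the log2 fold change of −0.24 ± 0.12 did not pass (adjusted p = 0.303); without control 1 it was −0.12.

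Postn, which encodes periostin and marks fibroblasts and valve cushions, had 1192, 1320 and 1406 CPM in the controls and 1633, 1382 and 1372 CPM in the null-labelled hearts. Only null 1 lay above all controls (log2 fold change 0.16 ± 0.08, adjusted p = 0.326); it was 0.08 without null 1 and 0.10 without control 1. Tnc, which encodes tenascin-C, a protein of remodelling tissue, had 84.0, 96.7 and 114 CPM in the controls and 104, 91.1 and 79.96 CPM in the null-labelled hearts. Its log2 fold change of −0.10 ± 0.15 was smaller than its standard error, and without control 3 it was 0.02. Thbs1 and Thbs2, thrombospondins that bind growth factors and restrain vessel growth, had log2 fold changes of 0.26 and 0.22, and Dpt, which encodes dermatopontin, had 0.25; in each, control 1 was the lowest library and null 1 the highest.

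Among large proteoglycans and basement membrane genes 0 of 4 passed in edgeR, DESeq2 or limma-voom, and 0 had an unadjusted p under 0.05. Hspg2, which encodes perlecan, had 1963, 1874 and 1961 CPM in the controls and 1992, 1788 and 1881 CPM in the null-labelled hearts (log2 fold change −0.03 ± 0.05). Nid1 and Nid2, nidogens that join laminin to collagen IV, had log2 fold changes of 0.12 and −0.04. Vcan encodes versican, the main proteoglycan of the embryonic heart's loose matrix. It had 249, 249 and 366 CPM in the controls and 309, 278 and 274 CPM in the null-labelled hearts, so that control 3 alone lay above the null-labelled range. Its log2 fold change was −0.004 with all libraries (adjusted p = 0.993) and 0.21 without control 3 (adjusted p = 0.0586).

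Of the 5 crosslinking and collagen-processing genes, 0 passed in edgeR, DESeq2 or limma-voom and 0 had an unadjusted p under 0.05. Serpinh1, the collagen chaperone HSP47, was second only to Sparc per kilobase, at 279 CPM per kilobase, with 647 to 711 CPM over the 6 libraries. Pcolce, which speeds the cleavage of procollagen, had 145 to 159 CPM, and the 95% intervals of these genes ran from −0.15 to 0.06 and from −0.13 to 0.04. Lox, the lysyl oxidase that crosslinks collagen and elastin, behaved differently. It had 47.6, 60.0 and 90.7 CPM in the controls and 75.7, 56.0 and 62.1 CPM in the null-labelled hearts, a 1.91-fold range within controls, and its log2 fold change of −0.03 ± 0.29 changed sign with the setting. Loxl1 and Loxl2, of the same enzyme family, had −0.03 and 0.06.

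**Figure D3:**
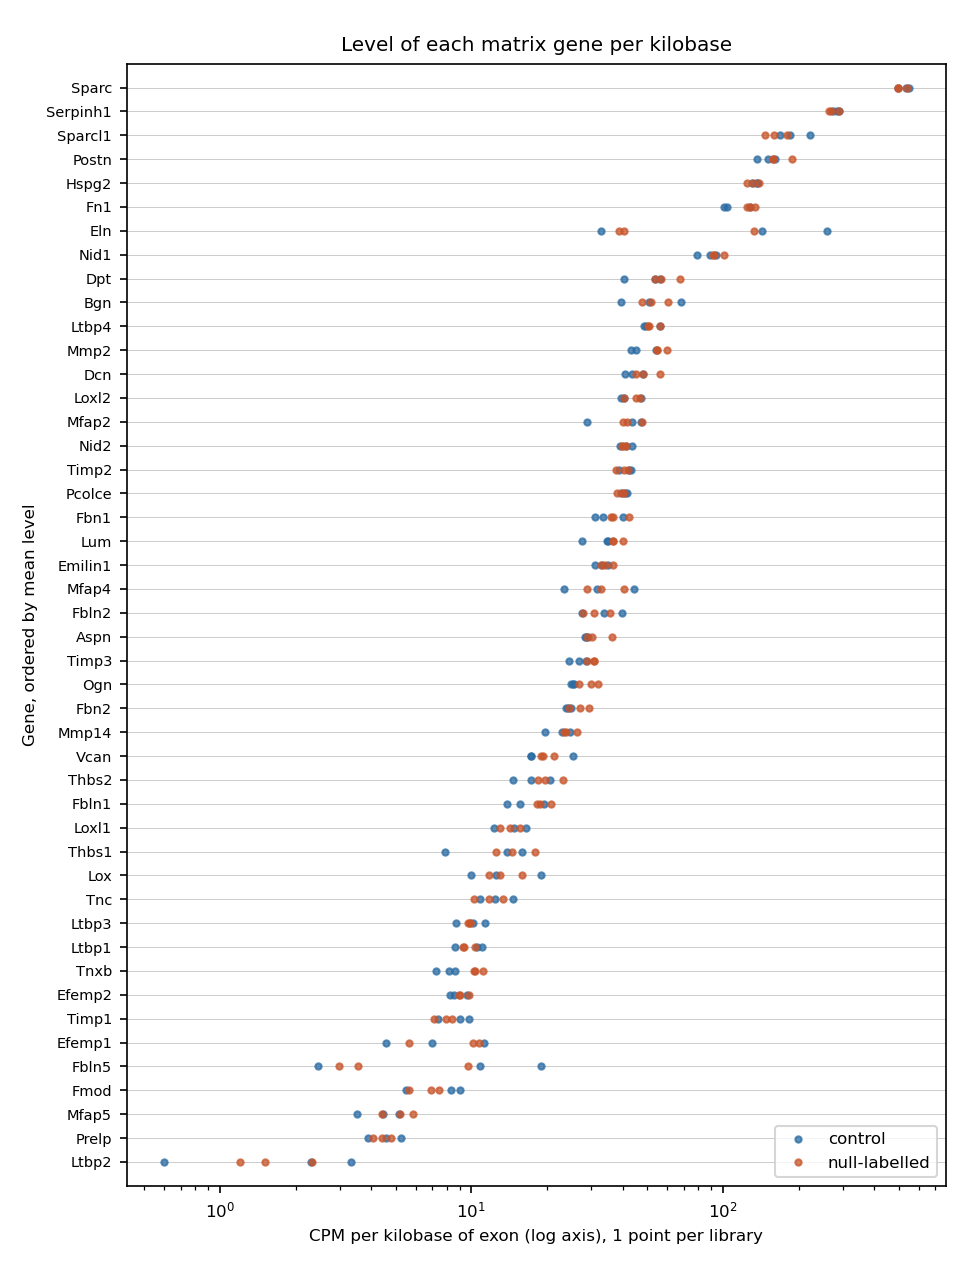
Level of each matrix gene in CPM per kilobase of exon (horizontal log axis), 1 point per library, controls in blue and null-labelled libraries in orange, ordered by the mean. Most genes keep their libraries close together, Sparc and Serpinh1 at the top included, while the points of Eln, Fbln5 and Ltbp2 spread widely in both groups.

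The widest variation among the 46 genes was not between the groups but between libraries of the same group, in elastic fibre genes. Eln, which encodes elastin, the rubber-like core of elastic fibres (chromosome 5, 134702593 to 134747323), had 264, 1162 and 2099 CPM in the controls and 1079, 327 and 313 CPM in the null-labelled hearts. Controls spanned 7.94-fold and null-labelled libraries 3.45-fold, and control 1 lay below every null-labelled library. The log2 fold change of −1.04 ± 1.00 had a 95% interval from −3.77 to 1.70 (adjusted p = 0.647). It was −0.32 without control 3 and −1.88 without null 1, so these libraries set almost no bound on a group difference in elastin.

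Fbln5, which encodes fibulin-5, needed for elastic fibre assembly, had 16.9, 75.1 and 131 CPM in the controls and 66.8, 20.5 and 24.6 CPM in the null-labelled hearts. Ltbp2, which binds fibrillin microfibrils and fibulin-5, had 4.91, 18.9 and 27.1 CPM in the controls and 19.0, 9.85 and 12.4 CPM in the null-labelled hearts. In Eln, Fbln5 and Ltbp2 alike, control 3 was the highest library, control 1 the lowest, and control 2 and null 1 lay between control 3 and the rest. Their within-group SDs on the log2 scale, 1.30, 1.26 and 0.98, stood at percentiles 99.7, 99.7 and 99.3 of all genes tested. Control 3 was also highest and control 1 lowest for Mfap4, Lox, Loxl1, Ltbp1, Ltbp3, Fbln2, Bgn, Fmod and Vcan, with smaller ranges. How many of all genes tested had this order of libraries was not counted. Fbln5 and Ltbp2 both lie on chromosome 12, at 101746565 to 101819055 and 84783212 to 84876532. Their RefSeq promoters (GRCm38.p6, minus strand, chr12:101819070-101819369, the nearer to the annotated gene start of 2 listed, and chr12:84876442-84876741) are shown because these genes shared their highest and lowest library and, after Eln, spread most within groups.
Fbln5: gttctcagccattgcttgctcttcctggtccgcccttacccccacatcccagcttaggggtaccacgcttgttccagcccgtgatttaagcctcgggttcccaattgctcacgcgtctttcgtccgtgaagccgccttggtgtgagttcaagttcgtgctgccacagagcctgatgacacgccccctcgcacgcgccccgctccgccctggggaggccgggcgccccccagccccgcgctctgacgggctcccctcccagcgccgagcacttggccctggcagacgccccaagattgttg
Ltbp2: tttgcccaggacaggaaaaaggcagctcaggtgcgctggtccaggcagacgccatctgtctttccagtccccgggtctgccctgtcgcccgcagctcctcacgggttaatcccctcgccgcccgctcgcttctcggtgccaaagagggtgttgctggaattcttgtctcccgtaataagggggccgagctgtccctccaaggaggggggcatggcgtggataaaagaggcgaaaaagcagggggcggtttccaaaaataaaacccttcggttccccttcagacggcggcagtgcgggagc
Neither window held any of the motifs searched above, on either strand, hence no capitals; this says only that these letters are not in these windows.

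Other elastic fibre genes varied less. Mfap4, a microfibril-associated protein, had 44.9, 60.7 and 85.2 CPM in the controls and 77.8, 55.5 and 63.2 CPM in the null-labelled hearts, with the same highest and lowest library as Eln. Fbn1 and Fbn2, the fibrillins that form the microfibrils, had log2 fold changes of 0.13 and 0.15. Of Fbn1's exon bases, 20.1% overlap Gm9913 on the other strand. Fbn2, the fibrillin that predominates before birth, had 320, 313 and 329 CPM in the controls and 324, 357 and 387 CPM in the null-labelled hearts, an unadjusted p of 0.0329 and an adjusted p of 0.196; null 1 lay inside the control range, and the log2 fold change was 0.09 without null 3. Mfap2, Mfap5, Emilin1, Efemp1 and Efemp2, further parts of the microfibril and its link to elastin, had log2 fold changes of 0.12, 0.24, 0.06, 0.22 and 0.08. Among these Efemp1 spread most, from 9.33 to 22.9 CPM within the controls, and its 95% interval ran from −0.95 to 1.40. Of the 10 elastic fibre genes 0 passed in edgeR, DESeq2 or limma-voom, 1 had an unadjusted p under 0.05 (Fbn2), and 5 had 95% intervals wider than 1 on the log2 scale. The remaining latent TGF-beta binding proteins, which store TGF-beta on microfibrils, had narrow intervals around 0: Ltbp1, Ltbp3 and Ltbp4 had log2 fold changes of −0.06, −0.04 and 0.03.

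**Figure D4:**
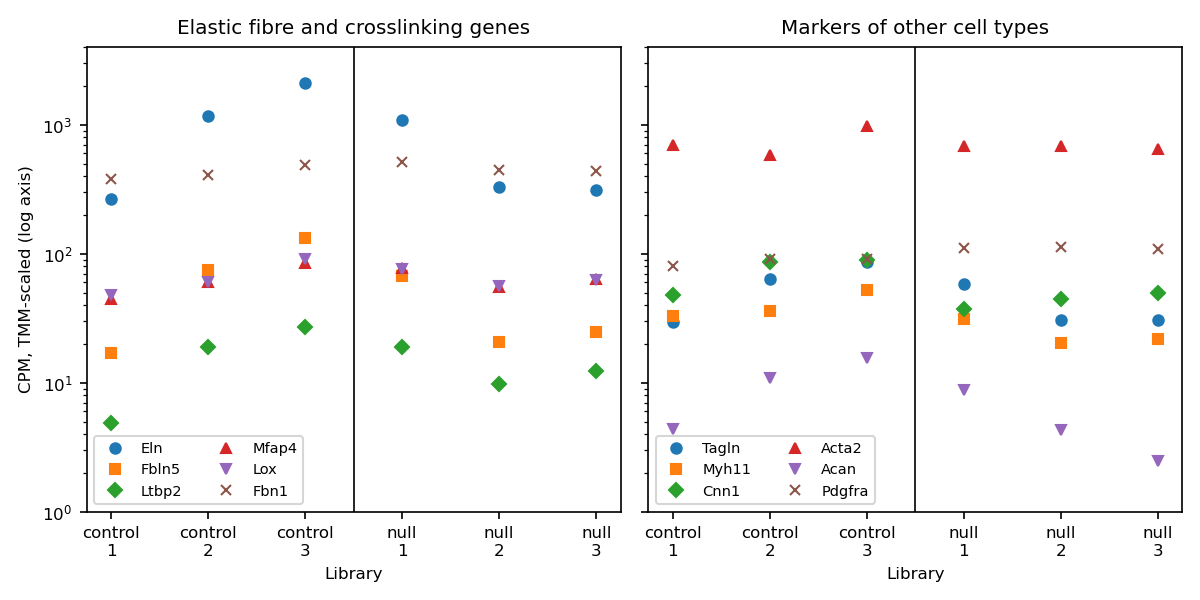
TMM-scaled CPM (log axis) in each of the 6 libraries for elastic fibre and crosslinking genes (left) and for markers of smooth muscle (Tagln, Myh11, Cnn1, Acta2), cartilage (Acan) and fibroblasts (Pdgfra) (right). Eln, Fbln5 and Ltbp2 are highest in control 3 and lowest in control 1; Tagln is also highest in control 3 and lowest in control 1, while Pdgfra separates the groups.

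Markers of other cell types were set beside this order of libraries. Of 10 smooth muscle and pericyte markers, 7 were highest in control 3 but 2 were lowest in control 1, and only Tagln was both. Tagln, a contractile protein of smooth muscle, had 29.5, 63.4 and 85.7 CPM in the controls and 58.3, 30.6 and 30.8 CPM in the null-labelled hearts. Myh11, the smooth muscle myosin, was also highest in control 3, but its groups did not overlap: it had 32.8, 35.7 and 52.6 CPM in the controls and 31.4, 20.3 and 21.9 CPM in the null-labelled hearts, and the difference did not pass (adjusted p = 0.244). Acan, the cartilage and valve proteoglycan aggrecan, was highest in control 3 and lowest in null 3. Control 3 was highest and control 1 lowest for 3 of 10 fibroblast, 2 of 6 endocardial and 2 of 6 valve mesenchyme markers. The same held for 1 of 4 cartilage, tendon and bone markers tested and for 2 of 2 liver and lung markers tested, the liver genes Alb and Afp. No cardiomyocyte, endothelial, epicardial or macrophage marker had both. The summed level of the cardiomyocyte markers had the reverse order, highest in control 1 and lowest in control 3. It was 65100, 62520 and 59560 CPM in the controls and 63630, 61260 and 62860 CPM in the null-labelled hearts. The part of cardiomyocyte content in the spread of the matrix genes was not tested. The summed level of all 10 smooth muscle and pericyte markers was 1995, 1865 and 2413 CPM in the controls and 2011, 1918 and 1902 CPM in the null-labelled hearts, so that control 3 was highest and control 2 lowest; 1 of the 10, Cspg4, fell. The summed level of the cartilage, tendon and bone markers ran from 8.09 to 22.6 CPM in the controls and from 6.44 to 14.47 CPM in the null-labelled hearts, with Matn1, Tnmd, Ibsp and Bglap at no more than 8 counts in any library. Liver and lung markers summed to 0.204 to 13.2 CPM in controls, highest in control 3, and to 2.06 to 5.17 CPM in the null-labelled hearts. In control 3 most of the sum came from Alb (9.11 CPM) and Afp (3.71 CPM). In null 2 most came from the lung gene Sftpc (3.85 CPM), which did not pass the filter on low counts. The part of these tissues in the spread of the elastic fibre genes was not tested.

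Across the whole set, null 1 was the highest library for 22 of the 46 genes and control 3 for 19, while control 1 was the lowest for 27 and control 2 for 11. The summed level of the 46 genes was 13010, 14000 and 16630 CPM in the controls and 15920, 13570 and 13760 CPM in the null-labelled hearts, or 1.29% to 1.67% of all counts. Without Eln the sums were 12750, 12840 and 14530 CPM and 14840, 13250 and 13440 CPM, so that control 3 and null 1 stayed above the rest. The median within-group SD of the 46 genes was 0.147 on the log2 scale, against 0.0653 over the 10447 genes with a mean level at or above that of the lowest of the 46. For the 111 further matrix genes tested, described below, it was 0.169. Of these, 20 lay above the 90th percentile of all genes tested, as did 7 of the 46. For 29 of the 46 genes the 95% interval lay within ±0.5 on the log2 scale, or 1.41-fold, and for 10 it was wider than 1. Over all 14815 genes tested, these counts were 10693 and 2390.

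**Figure D5:**
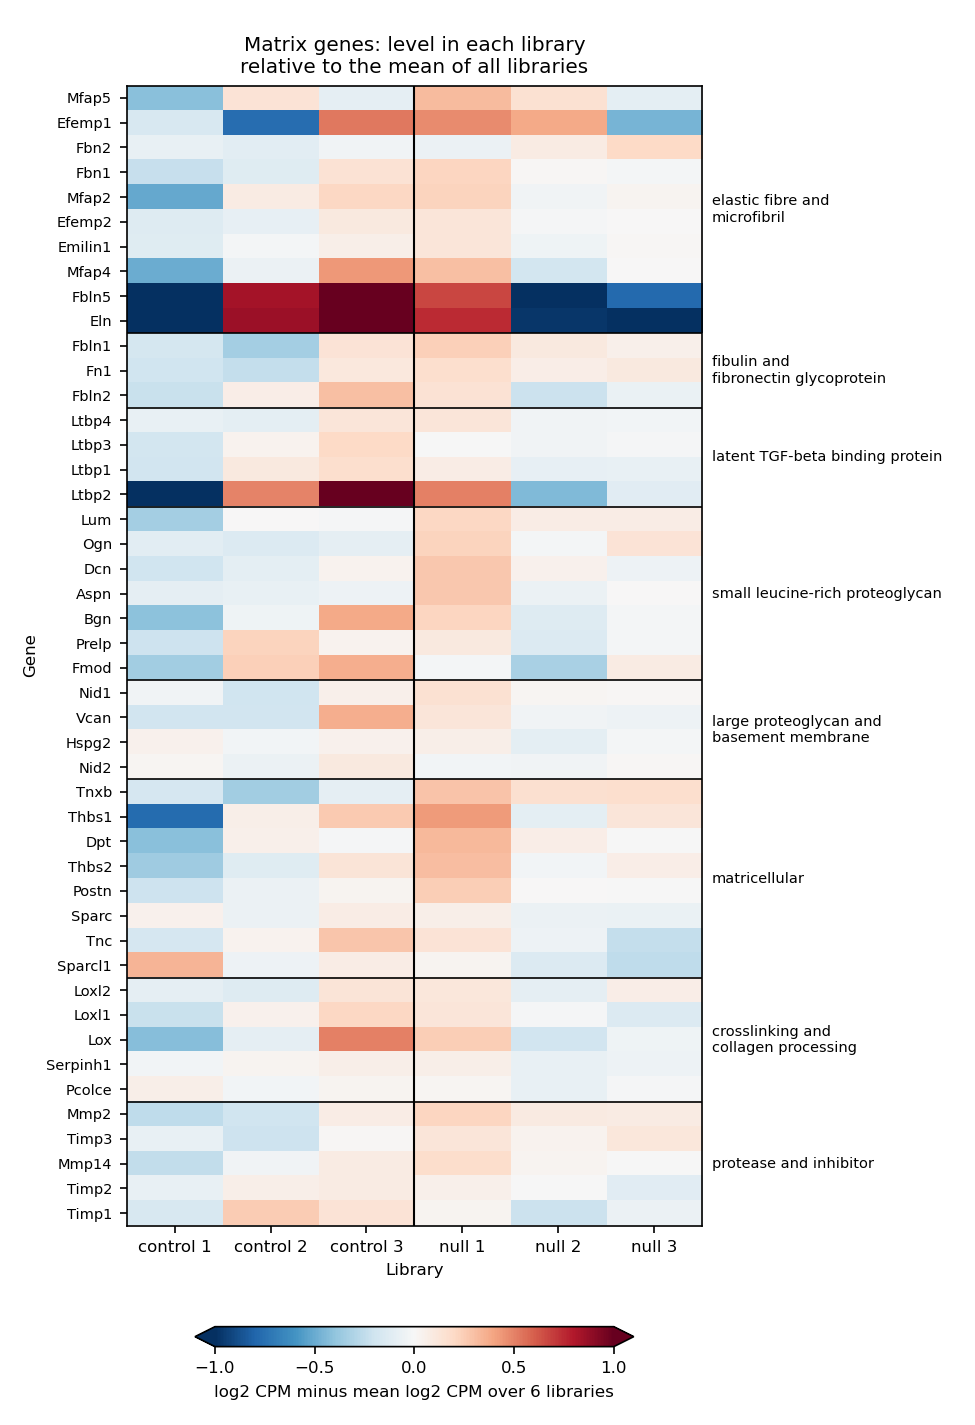
Log2 CPM of each matrix gene in each library minus its mean over the 6 libraries (colour, blue below and red above the mean, with values beyond ±1 at the end colours), grouped by role. Control 1 is blue for most genes and control 3 and null 1 are red for most, while Tnxb is blue in the 3 controls and red in the 3 null-labelled libraries.

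Markers of fibroblasts, which make most of this matrix, differed among themselves. Of 10 fibroblast markers 4 rose, Pdgfra, Tcf21, Dpep1 and Scara5, and 6 did not pass, with 7 above 0, 3 below (Meox1 at −0.16, Thy1 at −0.14 and Gli1 at −0.13) and a median log2 fold change of 0.09. Their summed level was 256, 281 and 304 CPM in the controls and 331, 319 and 318 CPM in the null-labelled hearts, with no overlap. Pdgfra, the platelet-derived growth factor receptor of fibroblasts, rose with a log2 fold change of 0.33. Macrophage markers, which sum to 78.5 to 89.9 CPM in the controls and 101 to 125 CPM in the null-labelled hearts, rose for 5 of 10. All 10 were above 0, and DESeq2 called 7 and limma-voom 2. Endothelial markers fell for 5 of 10 (1655 to 1863 CPM in the controls and 1482 to 1597 CPM in the null-labelled hearts). All 10 were below 0, and DESeq2 called 7 and limma-voom 4. In edgeR, 2.43% of all genes tested rose and 2.98% fell. The part of these cell types in the values of Tnxb and of the matrix genes without overlap was not tested.

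To set the 46 genes beside the rest of the matrix, a further 119 non-collagen matrix genes were examined, of which 111 were tested. Of these, 6 rose, 3 fell and 102 did not pass, or 8.11% called against 5.41% of all genes tested, and their median log2 fold change was 0.02. The 6 that rose were Smoc2 (log2 fold change 0.42), a matricellular relative of Sparc; Frem1 (0.38), a basement membrane protein; Spock2 (0.38), a proteoglycan of the same family as Sparc; Adamtsl2 (0.56) and Adamtsl4 (0.23), which bind fibrillin microfibrils; and Svep1 (0.50), a large adhesion protein needed in lymphatic vessel formation. Smoc2 had 31.0, 26.0 and 30.7 CPM in the controls and 38.5, 39.0 and 39.9 CPM in the null-labelled hearts (adjusted p = 0.00991). Adamtsl2 had 15.7, 19.5 and 22.5 CPM against 27.6, 28.4 and 29.0 CPM (adjusted p = 0.0383), and Svep1 had 41.3, 31.6 and 38.4 CPM against 51.8, 49.6 and 56.1 CPM (adjusted p = 0.0307). The Svep1 call was lost in 6 of 15 alternatives, among them a sex term (adjusted p = 0.0619) and leaving out control 3, null 1, null 2 or null 3 (0.0702 to 0.0964). The Adamtsl2 call was lost in 5, which left out control 2, null 1, null 2 or null 3 (0.104 to 0.128) or null 1 and null 3; the Adamtsl4 call was lost in 7, and those of Smoc2, Frem1 and Spock2 in 2 each, without null 3 (0.0503 to 0.0572) and without null 1 and null 3. Of Svep1's exon bases, 13.9% overlap Gm26889 on the other strand.

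The 3 that fell were Tgm2, Mfge8 and Papln. Tgm2, the transglutaminase that crosslinks matrix proteins and is abundant in endothelium, had 800, 854 and 789 CPM in the controls and 698, 649 and 702 CPM in the null-labelled hearts (log2 fold change −0.25, adjusted p = 0.0195). Of its exon bases, 13.7% overlap Gm20412 and 8.03% overlap Rprd1b, both on the other strand. Mfge8, a bridging protein that helps phagocytes take up dying cells, had 199, 206 and 207 CPM against 181, 177 and 159 CPM (−0.24, adjusted p = 0.023), and Papln, papilin, had 27.4, 21.3 and 24.3 CPM against 18.0, 15.5 and 19.5 CPM (−0.46, adjusted p = 0.0486). The Papln call was lost in 10 of 15 alternatives, with an adjusted p of 0.0544 under RLE size factors, 0.0501 when genes averaging under 1 CPM were dropped, 0.0561 in limma-voom, 0.0568 with a sex term and 0.0645 to 0.141 without control 1, control 3, null 1, null 2 or null 3. The Tgm2 call was lost in 6, among them without control 2, null 1, null 2 or null 3 (0.0531 to 0.0831), and the Mfge8 call in 4, among them without control 2, null 2 or null 3 (0.059 to 0.072). None of the 9 passed without null 1 and null 3 (adjusted p 0.203 to 0.422). By subgroup, 2 of 20 ADAMTS genes rose and 0 fell, 1 of 17 crosslinking and modifying enzymes fell, and 0 of 8 further metalloproteinases and 0 of 5 further protease inhibitors passed in edgeR (1 and 0 at an unadjusted p under 0.05; 1 and 0 in DESeq2). The number that rose was 0 without null 3, 3 without null 1 or null 2, 10 without control 3 and 0 without null 1 and null 3, and the number that fell was 1 without control 2, null 2 or null 3, 5 without control 1 and 1 without null 1 and null 3. DESeq2 called 11 higher and 5 lower.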

How the data were processed

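The authors deposited whole-number counts per Ensembl gene, 1 file per library, with no normalisation. Cutadapt 1.13, STAR, HTSeq 0.6.1p1, DESeq2 and genome build mm10 are named, per the submitters' processing notes; no source used here gives their order, the annotation release or the strand setting. Of the 25006 genes, 24991 matched GENCODE M21 (same build) for symbols, positions and exon lengths. The 13 mitochondrial protein genes have 0 counts throughout, which leaves no mitochondrial share. From the counts, genes were filtered with filterByExpr and scaled by TMM. The groups were tested with edgeR 4.0.16 and its quasi-likelihood method (R 4.3.3; robust, group as the only term, two-sided, Benjamini-Hochberg adjustment over all genes tested, threshold 0.05); the test was tried on simulated data. Every adjusted p comes from it unless another tool is named. Standard errors and 95% intervals follow from each fold change and its F. Levels per kilobase use the union of annotated exons. Replicates of a group were not copies of each other: chi-square per degree of freedom between their counts was 9.21 to 27.9. Alternatives were other scalings and filters, DESeq2 1.42.0, limma-voom (limma 3.58.1), each library left out, 2 libraries left out, a replicate block and a sex term. The genes named were every called member, the 8 uncalled members of smallest p, the 6 of highest level per kilobase, 10 fixed members, and called genes of the further matrix list; other genes, such as Aspn, Fbln5 and Ltbp2 among the members and single markers, were singled out after their values were seen. The members and all lists were chosen with earlier results of these data known. RefSeq promoters matched 32 of the 46 members by symbol; Eln and Mmp2 were among those that did not match.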

Additional observations from a re-analysis of the deposited data

How the results depend on the processing

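The number of matrix genes called lower was 0 under every alternative run. The number called higher was 1 as reported, 2 with no low-count filter, 4 with DESeq2, 0 without null 1 and null 3, and 0 to 5 with a single library left out; the cause was not tested. The median log2 fold change of the 46 genes was 0.05 and ranged from −0.0083 to 0.173 with a library left out, the highest value without control 3; it was −0.03 without null 1 and null 3. Over all genes 801 were called, 258 to 942 with a library left out and 52 without null 1 and null 3, a fit in which the remaining null-labelled library is assumed to vary like the controls. Of the further matrix genes 6 were called higher and 3 lower: 11 and 5 with DESeq2, 0 and 1 without null 1 and null 3, and 0 to 10 and 1 to 5 with a library left out. Signs changed for uncalled genes near 0. Vcan had log2 fold changes of 0.000415 with RLE size factors, 0.00488 with upper-quartile scaling, 0.000216 with DESeq2, 0.0185 with limma-voom, 0.0187 with the replicate block and 0.0204 with a sex term; Lox had 0.0226 with limma-voom, 0.00517 with the replicate block and 0.00867 with a sex term. With a library left out the range was −0.0996 to 0.205 for Vcan, −0.221 to 0.266 for Lox, −0.225 to 0.033 for Fbln2, −0.075 to 0.00276 for Hspg2 and −0.203 to 0.0199 for Tnc. The replicate numbers did not pair the libraries (correlations of same-numbered deviations −0.06, −0.03 and −0.12); with the replicate block 570 genes were called over all, 1 matrix gene (Tnxb) was called, and of the further genes 9 rose and 2 fell, the calls of Tgm2 (adjusted p = 0.0622) and Adamtsl4 (0.0537) being lost. Over named genes and alternatives, 356 values kept direction and side of the threshold, 54 lost the call, 8 gained it and 17 changed sign.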
